A study of Mus musculus with 18 samples.

Results

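The 4 Hox clusters of the mouse genome were examined for trimethylation of lysine 4 of histone H3 (H3K4me3), a mark of active and poised promoters, in pancreatic islets. The members were the peaks of 2 deposited H3K4me3 peak lists that overlapped 1 of 4 windows of the mm9 build. These were Hoxa on chromosome 6 (52100000 to 52220000), Hoxb on chromosome 11 (96050000 to 96235000), Hoxc on chromosome 15 (102745000 to 102870000) and Hoxd on chromosome 2 (74500000 to 74610000). The rule selected 33 of 21905 peaks of the control list and 31 of 21434 peaks of the knockout list. The windows are named for 38 Hox genes, 10 each in Hoxa and Hoxb and 9 each in Hoxc and Hoxd.

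The control list came from islets of RIP-Cre mice and the knockout list from islets of mice with a Men1 islet-specific knockout, both harvested at 2 months of age and both of mixed strain background (129s6, C57BL/6 and FVB/N). RIP-Cre places Cre recombinase under the rat insulin promoter, which is active in beta cells, so other cell types of the islet may retain Men1. The labels do not say whether the knockout mice carry the same Cre, nor how many animals were pooled. Each genotype had 1 H3K4me3 library, so the differences below have no replicate check and no test was run. Read depth is unknown, and in whole islets fewer cells carrying a mark and less of the mark per cell cannot be told apart. The other 16 of the 18 samples (inputs, H3K27me3 and later ages) were not analysed here.

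Hox genes encode homeodomain transcription factors that give cells their position along the body axis. In each cluster the genes lie largely in the order of their paralogue groups, and genes near the group 13 end act in more posterior tissues and later in development than genes near the opposite end. In tissues that do not use them, Hox promoters are commonly held by Polycomb complexes under H3K27me3, and in some cell types with H3K4me3 alongside. Menin, the product of Men1, is a subunit of the methyltransferase complexes built on Kmt2a and Kmt2b, which place H3K4me3 and are known for sustaining Hox genes, Hoxa9 among them, in blood progenitors and leukaemia. Whether menin matters for the mark over these clusters in islets is the question this comparison addresses.

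The gene table at hand describes GRCm38, so its positions were not set against mm9 peaks and 0 of the 38 genes were tied to a peak. All 38 were found in that table, and it supplied their order, by the lowest position of each gene. Because of this, the long genes Hoxb3 and Hoxd3 stand nearer the group 13 end than Hoxb4 and Hoxd4. With rising position Hoxb runs from Hoxb13 to Hoxb1, Hoxc from Hoxc13 to Hoxc4 and Hoxd from Hoxd13 to Hoxd1. Hoxa runs the opposite way, from Hoxa2 to Hoxa13. This order was taken to hold in mm9, and positions below are counted from the group 13 end of each window. Islet marker genes and the level of the mark at Men1 itself were not analysed here for the same reason.

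Promoter sequences of 22 of the 38 genes (24 promoters) were matched by symbol in RefSeq (GRCm38.p6). There were none for Hoxa4, Hoxb2, Hoxb3, Hoxb5, Hoxb6, Hoxb7, Hoxb9, Hoxb13, Hoxc5, Hoxc6, Hoxc8, Hoxc9, Hoxc10, Hoxc11, Hoxc12 or Hoxc13. H3K4me3 is known to favour promoters rich in the dinucleotide CG, which reads the same on both strands. The motif CG was therefore counted in the 250 bases upstream of each start, where matches cannot overlap. All 24 Hox promoters held at least 1 CG, as did 92.1% of the 32851 promoters of the table. The median was 12.5 CG per Hox promoter (range 2 to 35), against 6 over the whole table. A GC content above 50% with an observed over expected CG ratio above 0.6 was found in 11 of 24 Hox promoters (45.8%) and in 30.8% of all promoters. Hoxa and Hoxd gave 10 promoters each, Hoxb 3 and Hoxc 1, so the pooled values describe mainly Hoxa and Hoxd.

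The sequences below show this range, with CG in capitals. They are the promoter with the most CG among the entries of each cluster, followed by the 2 starts listed for Hoxd11, 1 of which has the fewest CG of all 24. Positions are on GRCm38.p6 and are not comparable with the mm9 peak positions.
Hoxa13, chr6:52260881-52261130 (- strand): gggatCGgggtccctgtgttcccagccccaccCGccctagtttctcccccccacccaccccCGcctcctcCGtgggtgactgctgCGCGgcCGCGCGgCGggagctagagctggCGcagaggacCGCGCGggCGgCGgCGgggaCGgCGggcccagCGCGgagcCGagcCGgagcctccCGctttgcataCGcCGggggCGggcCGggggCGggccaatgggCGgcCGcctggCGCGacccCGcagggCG
Hoxb4, chr11:96318017-96318266 (+ strand): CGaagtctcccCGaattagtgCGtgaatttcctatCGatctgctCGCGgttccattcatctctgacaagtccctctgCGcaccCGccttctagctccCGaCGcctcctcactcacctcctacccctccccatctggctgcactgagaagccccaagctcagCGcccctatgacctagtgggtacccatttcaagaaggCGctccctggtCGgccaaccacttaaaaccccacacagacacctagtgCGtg
Hoxc4, chr15:103034145-103034394 (+ strand): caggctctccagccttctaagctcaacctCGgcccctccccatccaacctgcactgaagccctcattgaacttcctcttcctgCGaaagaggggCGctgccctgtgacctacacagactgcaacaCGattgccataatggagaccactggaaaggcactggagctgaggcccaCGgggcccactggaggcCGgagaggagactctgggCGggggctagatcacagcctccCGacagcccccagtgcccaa
Hoxd13, chr2:74667975-74668224 (+ strand): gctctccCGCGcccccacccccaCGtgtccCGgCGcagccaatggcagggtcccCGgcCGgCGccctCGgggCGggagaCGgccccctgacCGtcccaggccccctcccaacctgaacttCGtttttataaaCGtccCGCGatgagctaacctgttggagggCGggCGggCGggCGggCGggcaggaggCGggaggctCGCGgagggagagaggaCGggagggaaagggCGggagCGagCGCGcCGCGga
Hoxd11 first start, chr2:74679308-74679557 (+ strand): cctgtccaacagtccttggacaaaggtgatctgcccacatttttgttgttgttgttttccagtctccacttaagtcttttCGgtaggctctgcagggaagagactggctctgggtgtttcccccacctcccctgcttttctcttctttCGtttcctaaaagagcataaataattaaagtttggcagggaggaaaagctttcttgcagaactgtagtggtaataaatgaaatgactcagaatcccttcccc
Hoxd11 second start, chr2:74682073-74682322 (+ strand): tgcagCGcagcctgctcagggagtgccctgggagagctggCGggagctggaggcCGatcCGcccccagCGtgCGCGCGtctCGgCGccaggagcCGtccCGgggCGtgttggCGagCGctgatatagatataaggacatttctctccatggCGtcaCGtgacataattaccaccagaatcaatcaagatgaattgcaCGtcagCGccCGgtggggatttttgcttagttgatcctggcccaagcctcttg
Hoxa13 held 35 CG and Hoxd13 held 31. Both genes lie at the group 13 end of their cluster and act in limb and hindgut patterning. Hoxb4, known in blood stem cells, held 14 CG, and Hoxc4, the only entry of its cluster, held 8. The starts of Hoxd11 held 2 and 20.

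Every cluster carried H3K4me3 in both genotypes, as a row of separate narrow peaks. Hoxa held 9 control and 6 knockout peaks, Hoxb 12 and 11, Hoxc 4 and 6, and Hoxd 8 in each list. Control peaks covered 11428 bp of Hoxa and knockout peaks 7805 bp, which is 9.52% and 6.50% of its window of 120 kb. In Hoxb, the longest window with 185 kb, they covered 14678 bp (7.93%) and 12693 bp (6.86%). The values were 4555 bp (3.64%) and 6643 bp (5.31%) for Hoxc and 10270 bp (9.34%) and 10343 bp (9.40%) for Hoxd. Hoxc, with the fewest control peaks, was thus the least marked cluster in both lists.

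**Figure D1:**
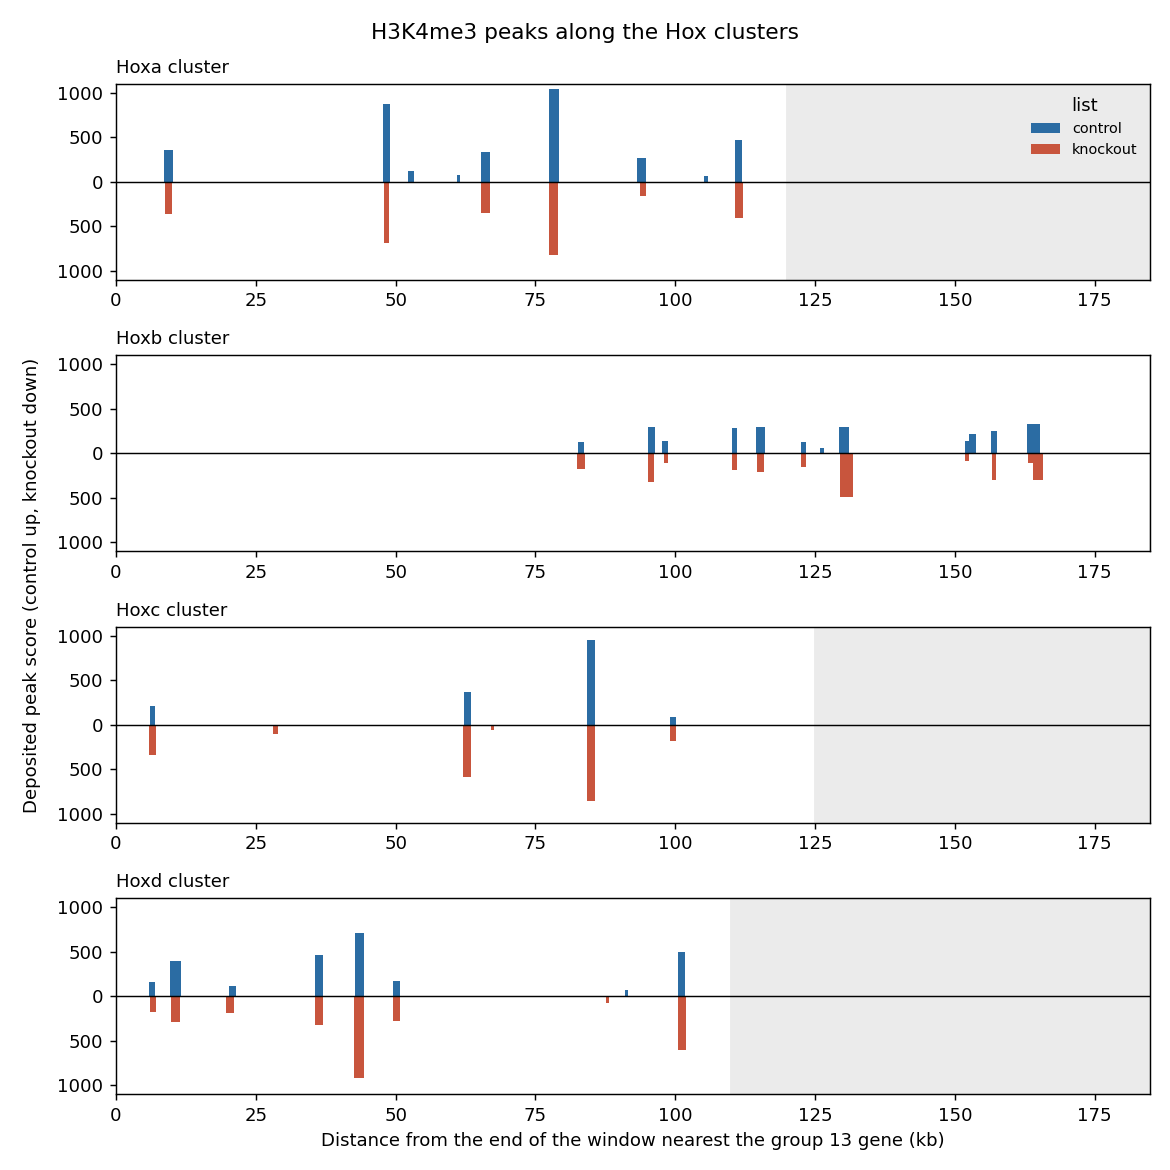
Peaks along each cluster, drawn to scale against the distance in kb from the group 13 end of the window, with the deposited score as height (control upward in blue, knockout downward in red) and grey where a window ends. The 33 control and 31 knockout peaks are drawn as deposited, at scores of at most 1037 and 919, and some neighbouring Hoxb peaks nearly touch. With peaks within 1 kb merged, Hoxb held 11 control and 10 knockout peaks. Hoxb is empty over the 82 kb nearest its group 13 end, and scores of the 2 lists are not on a common depth.

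Hox peaks were narrow. Control peaks ranged from 555 to 2273 bp with a median of 1203 bp, and knockout peaks from 494 to 2331 bp with a median of 1276 bp. Over the whole lists the medians were 1773 and 1632 bp. None of the Hox peaks reached 4 kb, a width passed by 4.37% of all control and 3.22% of all knockout peaks, and none reached 3 kb. The widest control peaks were 1811 bp in Hoxa (52140747 to 52142557), 2273 bp in Hoxb (96212907 to 96215179), 1351 bp in Hoxc (102829223 to 102830573) and 1841 bp in Hoxd (74509713 to 74511553). The widest knockout peaks were 1582 bp in Hoxa (52141013 to 52142594), 2331 bp in Hoxb (96179442 to 96181772), 1446 bp in Hoxc (102807099 to 102808544) and 1686 bp in Hoxd (74542592 to 74544277). In Hoxa alone the same region held the widest peak of both lists.

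The scores were low as well. Each peak carries a score deposited by the authors, used here to rank peaks within a list. All 33 control and all 31 knockout Hox peaks scored under the median of their list (1988 and 1591), where 50.0% of each list lies by definition. Control scores ran from 60.1 to 1037 with a median of 267, and knockout scores from 64.6 to 919 with a median of 290. The median Hox peak had a higher score than 25.0% of the control list or 27.6% of the knockout list, and the highest reached 41.2% and 41.9%. Peaks of like score were narrow throughout the genome: control peaks scoring from 60.1 to 1037 had a median width of 1000 bp, and knockout peaks from 64.6 to 919 one of 920 bp. Hox peaks, at 1203 and 1276 bp, were not narrower than these.

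**Figure D2:**
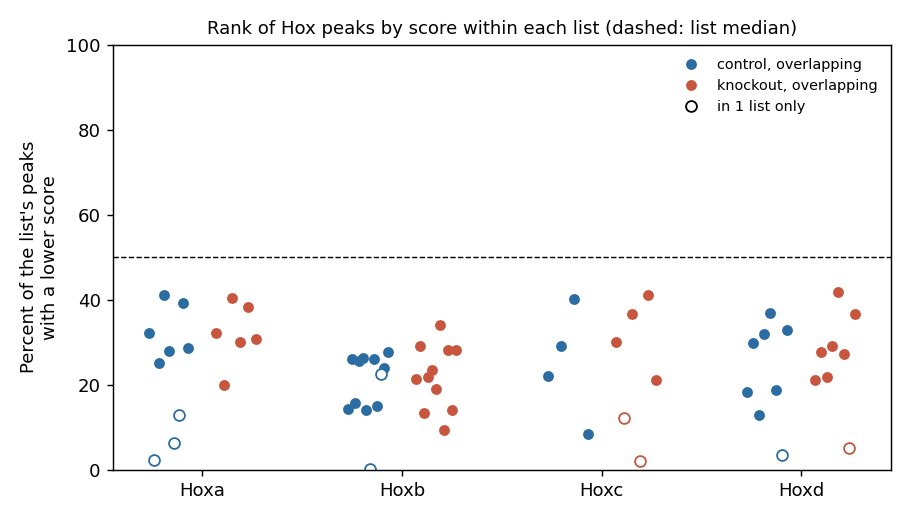
Rank by score of each Hox peak within its list, as the percent of the list's peaks with a lower score, by cluster (blue control, red knockout, open circles for peaks found in 1 list only, dashed line at the list median of 50). All points lie under the line, at 41.9 or less, and 8 of the 9 open circles lie under 13.

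The clusters differed in their strongest peak. Hoxb, which held the most peaks, reached a score of 332 in the control list and 487 in the knockout list. The highest scores were 1037 and 825 in Hoxa, 952 and 859 in Hoxc, and 707 and 919 in Hoxd. In Hoxa and Hoxc the highest-scoring peaks of both lists overlapped, at 52140747 to 52142594 and at 102829223 to 102830610. The same held in Hoxd at 74542592 to 74544338. In Hoxb the control peak with the highest score lay at 96212907 to 96215179 and the knockout peak at 96179442 to 96181772.

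Position along the clusters also differed. Each window was divided into 4 equal segments counted from the group 13 end. Hoxb had no peak in its segment 1 in either list. Its first peak from that end lay 82.7 kb into the window in control and 82.4 kb in knockout islets, and its segment 3 was covered to 18.3% in control islets, more than any other segment, and to 15.5% in knockout islets. The table lists Hoxb13 and then Hoxb9 at that end of the cluster. Hoxd was marked mostly towards the group 13 end, with 14.5% and 15.2% of segment 1 and 16.0% and 15.5% of segment 2 covered in control and knockout islets. It had no peak in segment 3, and 6.85% and 6.94% of its segment 4 were covered.

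In Hoxa the marked length lay towards the group 2 end. Segment 1 was covered to 4.82% and 4.69%, segment 3 to 13.8% and 10.2%, and segment 4 to 12.1% and 8.07%. Hoxc was covered most in segment 3 (7.58% in control, 9.32% in knockout) and least in segment 2 (0.637% and 1.29%). The longest stretch without a peak between the outermost peaks of a cluster measured 37.7 kb in control and 37.8 kb in knockout islets in Hoxa, 20.7 and 20.1 kb in Hoxb, and 40.2 and 36.8 kb in Hoxd. In Hoxc it measured 55.2 kb in control islets, from 102752065 to 102807301, and a knockout-only peak inside this stretch left 33.1 kb in knockout islets.

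**Figure D3:**
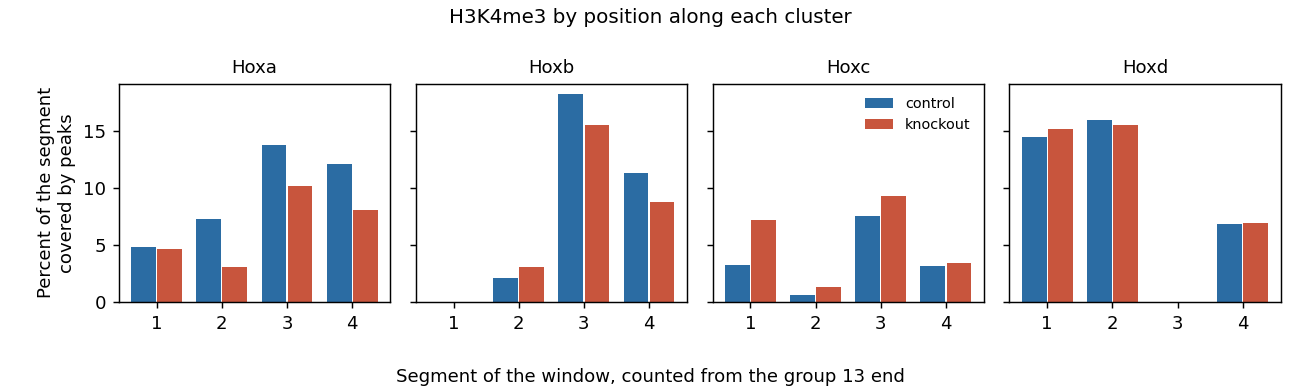
Percent of each segment of the window covered by peaks, for segments 1 to 4 counted from the group 13 end (blue control, red knockout, 1 library each). Segment 3 of Hoxb is the most covered at 18.3% in control islets, while segment 1 of Hoxb and segment 3 of Hoxd have no bar in either list.

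The knockout over control ratio differed between the clusters. Marked length in knockout islets was 68.3% of the control length in Hoxa (log2 ratio -0.55), 86.5% in Hoxb (-0.21), 100.7% in Hoxd (0.01) and 146% in Hoxc (0.54). Summed over the clusters, control peaks covered 40931 bp and knockout peaks 37484 bp, or 91.6% (log2 ratio -0.13). All peaks of the genome together gave 90.1% (-0.15). Hoxa was 1.46-fold shorter and Hoxc 1.46-fold longer, and neither reached the 1.5-fold used here as a limit. Hoxc passed it with scores of at least 100 (log2 ratio 0.76) and relative to the ratio of the whole genome (0.69), while Hoxa did not (-0.37 and -0.40). Of 2681 windows of 120 kb tiled along the genome with a mean covered length of 5 kb or more, 2.98% were at least 1.5-fold lower and 0.261% at least 1.5-fold higher in knockout islets.

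Those windows had a median log2 ratio of -0.13 with an SD of 0.20. A ratio at or below that of Hoxa occurred in 3.36% of them and a ratio at or above that of Hoxc in 0.298%. In all but 43 of these windows at least 1 peak reached the median score of its list, which no Hox peak did. Among those 43, of which 3 overlapped a Hox cluster, the SD was 0.43. There 20.9% had a ratio at or below that of Hoxa and 4.65% a ratio at or above that of Hoxc. With a mean covered length of 3 kb or more there were 247 such windows, 6 of them overlapping a Hox cluster. Their shares were 18.2% and 6.07%. The Hox windows are counted in these shares, so the clusters are partly compared with themselves. Both narrower sets were chosen after the Hox scores were seen, and the spread between libraries of 1 genotype is not known.

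**Figure D4:**
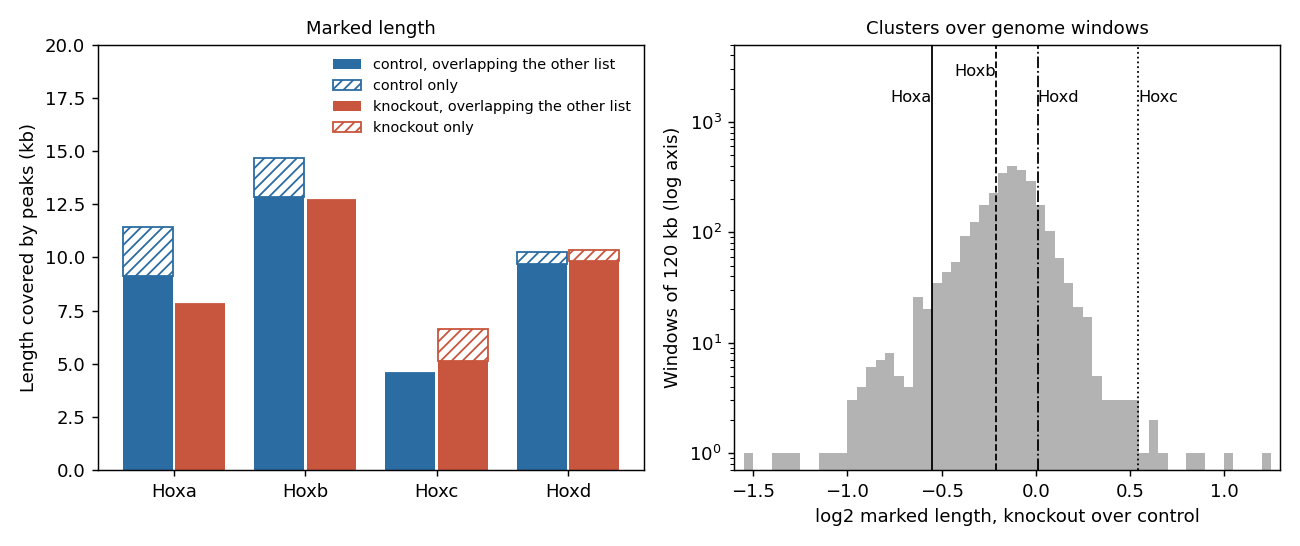
Left, length covered by peaks in kb per cluster (blue control, red knockout), with hatching for peaks that no peak of the other list overlapped. Right, log2 of knockout over control marked length in 2681 windows of 120 kb (grey, log axis) with the clusters as vertical lines: Hoxa at -0.55, Hoxb at -0.21, Hoxd at 0.01 and Hoxc at 0.54.

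Much of the difference at Hoxa, Hoxb and Hoxc came from peaks called in 1 list only. Hoxa had 3 control-only peaks of 2302 bp together and 0 knockout-only peaks. With regions marked in both lists alone, an alternative chosen after seeing the data, control peaks of Hoxa covered 9126 bp and knockout peaks 7805 bp (log2 ratio -0.23). Hoxc had 2 knockout-only peaks of 1528 bp together and 0 control-only peaks. Its regions marked in both lists covered 4555 and 5115 bp (log2 ratio 0.17). The corresponding ratio was -0.01 for Hoxb, whose 2 control-only peaks held 1860 bp, and 0.02 for Hoxd.

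Over the 4 clusters, 6 of 33 control peaks (18.2%, exact Clopper-Pearson 95% interval 6.98 to 35.5) had no knockout peak overlapping them, against 12.7% of the control list. In the knockout list 3 of 31 (9.68%, interval 2.04 to 25.8) had no control peak, against 8.71% of that list. Both shares are near those of the whole lists, and the intervals, which treat peaks as independent, contain the latter. Among all peaks under the median score, 25.3% of control and 17.4% of knockout peaks were found in 1 list only. Among peaks in the score range of the Hox peaks the shares were 30.6% and 18.7%, above the Hox shares but inside the intervals.

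With 1 exception, the one-list peaks had the lowest scores of their cluster and list. In Hoxa the control-only peaks lay at 52114141 to 52114871 (731 bp, score 65.9), 52158483 to 52159088 (606 bp, score 79.4) and 52166784 to 52167748 (965 bp, score 117). They scored under each of the 6 shared control peaks of that cluster. Knockout peaks were 4.81, 3.84 and 3.44 kb away. In Hoxb a control-only peak of 657 bp at 96175942 to 96176598 had a score of 60.1, the lowest of the control Hox peaks. The other control-only peak of Hoxb (96202623 to 96203825, 1203 bp) was the exception, with a score of 220, and it lay 60 bp from a knockout peak.

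In Hoxc the knockout-only peak at 102773032 to 102773985 was 954 bp wide with a score of 103, and the nearest control peak was 21.0 kb away. It was the one-list peak farthest from the other list. The other, at 102812071 to 102812644, was 574 bp wide with a score of 64.6 and 3.55 kb from a control peak. Hoxd had 1 one-list peak in each list, a control-only peak of 555 bp (74590949 to 74591503, score 69.6) and a knockout-only peak of 494 bp (74587655 to 74588148, score 72.3). They lay 2.80 kb from each other.

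Touching peaks of both lists were then joined, which gave 36 Hox regions, 27 of them marked in both lists. Of the 27, 15 were shorter in knockout islets, against 73.8% of the 18970 such regions of the genome, and 12 were longer, against 26.1%. Hoxa and Hoxb were near the genome share, while Hoxc and Hoxd, with few regions each, leaned the other way. In Hoxa 5 of 6 and in Hoxb 7 of 10 regions were shorter in knockout islets, while in Hoxc 3 of 4 and in Hoxd 5 of 7 were longer. The median log2 ratio was -0.22 in Hoxa, -0.13 in Hoxb, 0.19 in Hoxc and 0.09 in Hoxd, beside -0.11 over all 18970 regions. Neighbouring regions share a library and a locus, so these counts describe this pair of libraries.

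At least 1.5-fold shorter in knockout islets were 2 of the 27 regions, beside 6.00% of all regions, and 0 were at least 1.5-fold longer, beside 0.949%. The first was the lowest of Hoxa (52125151 to 52126848), where the control peak covered 1698 bp and the knockout peak 1022 bp (log2 ratio -0.73) and scores of 267 and 164. It lay towards the group 2 end. The second was the lowest of Hoxb (96147603 to 96148787), with 1185 and 705 bp (log2 ratio -0.75) and scores of 139 and 109. In both, knockout islets held a single, shorter peak within the control peak. When peaks within 1 kb were joined as well, 3 Hox regions were at least 1.5-fold shorter in knockout islets and 0 were longer by that fold. The genome share under that joining is not at hand, so these counts cannot be set against the genome.

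The region with the highest ratio in Hoxb, and of all clusters, lay at 96132432 to 96133868, the first peak from the group 13 end. Its control peak covered 987 bp and its knockout peak 1437 bp (log2 ratio 0.54). Of the 6 shared Hoxa regions 1 was longer in knockout islets, that nearest the group 2 end (52107937 to 52109334), with 1210 and 1398 bp (0.21). In Hoxc the highest ratio was at the region nearest the group 13 end (102750922 to 102752221), with 1006 and 1300 bp (0.37). The lowest of Hoxc (102829223 to 102830610) covered 1351 and 1296 bp (-0.06). In Hoxd the ratios ran from -0.28 at 74535514 to 74537099, with 1586 and 1303 bp, to 0.32 at 74519718 to 74521389, with 1118 and 1392 bp. In Hoxb, 1 control peak (96212907 to 96215179) met 2 knockout peaks, which covered 2573 bp together against 2273 bp.

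Width was finally compared where a control peak and a knockout peak overlapped each other and no further peak (one-to-one pairs). The 26 Hox pairs had a median log2 ratio of knockout over control width of -0.06 (95% order-statistic interval -0.24 to 0.17) and an SD of 0.32. The knockout peak was narrower in 15 pairs and wider in 11. Over all 18299 pairs of the genome the median was -0.11 and 73.8% were narrower. Among the 7427 pairs with both scores under their list's median the values were -0.16 and 71.2%. The interval of the Hox pairs holds both medians, but it treats neighbouring peaks as independent and pools clusters whose medians differ in sign. It describes these peaks only and cannot decide whether the Hox pairs differ from the genome. By cluster, the median was -0.22 in Hoxa (6 pairs), -0.20 in Hoxb (9), 0.19 in Hoxc (4) and 0.09 in Hoxd (7).

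The median shift of the knockout borders was outward at Hoxc alone among the clusters. Each border was summarised on its own, so these medians do not give the change in width. At Hoxd both were inward, though 5 of 7 pairs were wider and the median change in width was 84 bp. Counted inward, the left border moved by a median of 126 bp at Hoxa, 75 bp at Hoxb, 6 bp at Hoxd and -102 bp at Hoxc. For the right border the medians were 44, 75, 61 and -32 bp. Over all pairs of the genome they were 66 and 70 bp, and over pairs with both scores under the median 59 and 63 bp, so the values of Hoxb were near those of the genome. Ranks by score gave a like picture for Hoxc, where all 4 pairs had a higher rank in the knockout list, by a median of 7.62 percentage points. The rank was higher in the knockout list in 2 of 6 Hoxa, 5 of 9 Hoxb and 5 of 7 Hoxd pairs. The share with a higher rank in the knockout list was 65.9% over all pairs of the genome, where peaks tied at a score take the lowest rank of their tie, and 40.4% over pairs with both scores under the median.

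**Figure D5:**
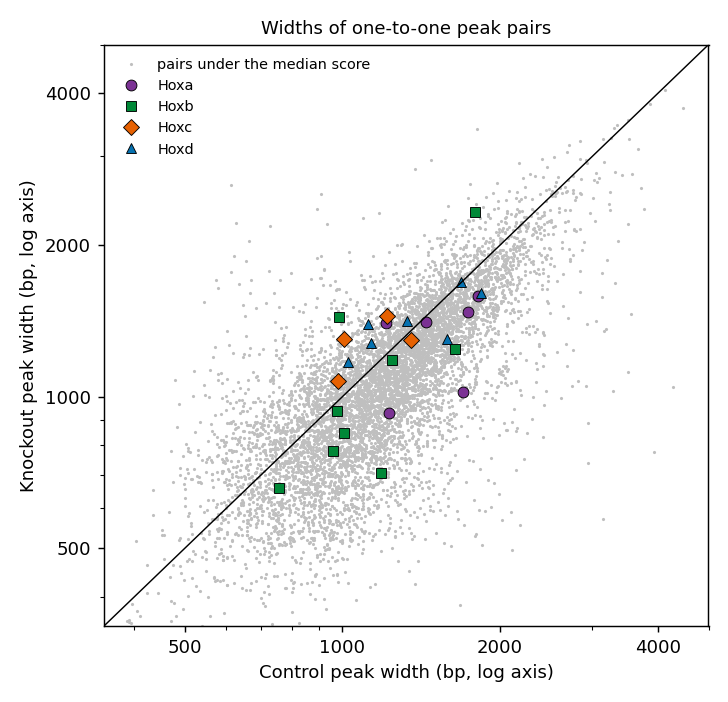
Knockout against control peak width in bp (both log axes) for the 26 one-to-one Hox pairs, by cluster, over the 7427 pairs of the genome with both scores under the median of their list (grey) and the line of equal width. Of the Hoxc points 3 of 4 lie above the line and of the Hoxa points 5 of 6 below it, beside 71.2% of the grey pairs below it.

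The surroundings of the clusters differed from the clusters themselves. Within 250 kb on either side there were 34 control peaks, of which 13 scored at or above the list median and 9 reached the tied score of 3100. The knockout list had 33 such peaks, of which 13 and 8 did so. Over the whole lists 41.3% of control and 33.4% of knockout peaks scored 3100 or more, larger shares than in these flanks. Inside the clusters 0 of 33 and 0 of 31 reached the median. Hoxa and Hoxd stood in sparse surroundings, with 3 control peaks each within the flanks (0.6 per 100 kb), against 7.5 and 7.27 per 100 kb inside. Hoxb and Hoxc had 13 and 15 such control peaks (2.6 and 3.0 per 100 kb), against 6.49 and 3.20 per 100 kb inside.

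Marked length of the flanks did not follow that of the clusters at Hoxc. In the flanks of Hoxc, control peaks covered 27416 bp and knockout peaks 26748 bp (log2 ratio -0.04), where the cluster had a ratio of 0.54. Those of Hoxa covered 4547 and 3834 bp (-0.25), those of Hoxb 19956 and 14714 bp (-0.44), and those of Hoxd 5038 and 5485 bp (0.12).

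Clusters of many weak peaks were uncommon in the control list. These windows were singled out after the Hox scores were seen. Of 9955 windows of 120 kb that held a control peak, 180 (1.81%) held 8 or more. In 4 of the 180 no peak reached the median score of the list, and 2 of these 4 lay in Hox clusters. One covered most of Hoxb (chromosome 11, 96120001 to 96240000), with 12 peaks and a highest score of 332. The other covered most of Hoxa (chromosome 6, 52080001 to 52200000), with 8 peaks and a highest score of 1037. The remaining windows were on chromosome 18. Hoxd also held 8 control peaks, all under the median score, but a border of the tiled windows fell between them, so no window held all 8. In the knockout list 178 windows held 8 or more peaks and 4 of them had none at the median score, of which 1 lay in a Hox cluster.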

How the data were processed

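H3K4me3 peak lists of control and Men1 knockout islets at 2 months were used, 1 library each, matched to samples by genotype, age and mark in their names. Bowtie, MACS 1.4.2 and the mm9 build are named in the submitters' processing notes. What "2nd" in the list names means, the role of the inputs, filters and pooling are not stated there. Each deposited list gives positions and a score per peak, with no scale stated and no counts, so depth is unknown, and depth and genotype cannot be told apart. No per-sample column was left unused (0).

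Peaks were kept as deposited, and 0 overlapped another of their list. Length was clipped to the window, peaks were shared at 1 bp of overlap, and positions are 1-based. Overlaps and lengths were checked with bedtools 2.31.1 and tested on simulated data (Python 3.11.15, pandas 2.3.3). Members, windows and lists were chosen with earlier results of these data known. Named regions follow a rule: in each cluster the widest peak of each list, the joined regions with the lowest and highest ratio, and every one-list region. Highest-scoring, split and nearby peaks were added after their values were seen. Lists of menin-complex, Polycomb, cofactor and islet marker genes needed an mm9 annotation and were not used here. Alternatives covered the score minimum, window, merging, overlap, fold, width class and number of parts.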

Additional observations from a re-analysis of the deposited data

How the results depend on the processing

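Of 144 recomputed values 109 stayed close (within 1.5 times for a count, length or share of length, 0.1 for a log2 ratio of marked length, the 95% interval for a median or share), 35 moved and 0 changed sign past the limit. The 109 include values that could not change, because no peak lay closer than 5.92 kb to a window end. Leaving peaks unclipped, or shortening each window by 5 kb at both ends, therefore altered nothing and was no check. At or above the list median score, each of the 4 clusters held 0 peaks and 0 bp in both lists, so that no ratio or Hox pair remained. With scores of at least 100 the log2 ratio of marked length was -0.37 for Hoxa and 0.76 for Hoxc, past 1.5-fold. Regions marked in both lists alone gave -0.226, -0.014 and 0.167 for Hoxa, Hoxb and Hoxc. Relative to the ratio of the whole genome the values were -0.40 for Hoxa, -0.060 for Hoxb, 0.69 for Hoxc, again past 1.5-fold, and 0.16 for Hoxd. Windows of 60 kb were at least 1.5-fold lower in 1.85% of cases. At the lowest fold limit tried, 4 Hox regions were shorter and 3 longer in knockout islets, and at 2-fold 0 were shorter. Genome shares at these other limits are not at hand, so the counts cannot be set against the genome. The median log2 width ratio of all pairs was -0.109 with scores of at least 100, -0.094 at or above and -0.165 under the list medians. The most marked part held 55.5% of the control length of Hoxa with 3 parts, and 35.7% and 34.6% of the control and knockout length of Hoxb with 5. No paired analysis was possible because only 1 library per genotype was at hand, and with unknown depth an absent peak cannot be told from one below detection.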

Other observations

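Summed over the clusters by position, segment 1 from the group 13 end held 6434 bp of control and 7831 bp of knockout peaks (log2 ratio 0.28). Segment 4 covered 11746 and 9480 bp (-0.31), and the segments between had ratios of -0.15 and -0.19. Segment 1 had no Hoxb peak, and 1248 bp of its difference came from Hoxc, so cluster and position cannot be told apart in these sums. Within Hoxa the ratio of segment 1 was -0.04 and within Hoxd 0.07.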
